A study of Danio rerio with 12 samples.

Results

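The lowest exposure to bisphenol A (BPA) of the series, 0.1 mg/L in the water, was compared with its solvent control in RNA-seq libraries of whole zebrafish larvae. The comparison took 6 of the 12 libraries, chosen by their titles: 3 of the control group, with 0.2% DMSO and no BPA, and 3 of larvae given BPA at 0.1 mg/L in the same 0.2% DMSO. All larvae were wild type, were exposed from 2 to 5 days post fertilization, and were frozen at 5 days post fertilization, the eleutheroembryo stage. Each library held poly-A RNA of a pool of 10 larvae. The other 6 libraries, 3 at 1 mg/L and 3 at 4 mg/L BPA under the same protocol, entered the same statistical fit and are given beside the lowest dose where they bear on it. The labels do not say whether the pools came from separate clutches or dishes, so the p-values measure the spread between these pools, which may be technical.

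BPA is a monomer of polycarbonate plastics and epoxy resins and a weak ligand of estrogen receptors, which are transcription factors that a bound steroid switches on. In fish, the best known genes under estrogen control are cyp19a1b, the brain form of aromatase expressed in radial glia, and the vitellogenins, yolk precursors made by the liver. At 5 days the larval liver makes plasma proteins and lipoproteins, the gut opens to feeding, and the cones of the retina already support visual behaviour.

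The 6 libraries held 21.95 to 34.22 M counts (M for mega, as in Mb), and 22399 of the 31540 genes in the files passed the filter on low counts and were tested. All 58 gene lists drawn up for the tissues and pathways of a larva, liver, gut, retina, muscle, skin, blood and brain among them, had at least 5 tested members. On the main principal component of all 12 libraries, which took 29.26% of the variance, control 2, control 3 and library 3 at 0.1 mg/L lay at -27.64, -45.75 and -31.43. Control 1 and libraries 1 and 2 at 0.1 mg/L lay at 9.56, 6.39 and 4.21. The groups therefore overlapped on it, and library 3 was the lowest of its group in every group. Differences between libraries of the same number are given below for the gene lists. The labels do not say what a number stands for, so control and exposed libraries of the same number are not known pairs. In RNA of whole larvae, fewer cells of a type and less RNA per cell cannot be told apart.

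At 0.1 mg/L no single gene passed the test against control. The quasi-likelihood test of edgeR, with p-values adjusted by the Benjamini-Hochberg method, called 0 genes higher and 0 lower (0%) at an adjusted p under 0.05, and the smallest adjusted p was 0.506. At an unadjusted p under 0.05 there were 1123 genes (5.01% of those tested), 584 higher (2.61%) and 539 lower (2.41%). limma-voom also called 0 genes, while DESeq2 called 32, of which 21 were higher and 11 lower. The same edgeR fit called 14 genes higher (0.0625%) and 1 lower (0.00446%) at 1 mg/L, and 38 higher (0.17%) and 25 lower (0.112%) at 4 mg/L, each against the same 3 controls.

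The fitted differences at 0.1 mg/L were small. The median log2 fold change over all tested genes was -0.01, and the 5th and 95th percentiles were -0.45 and 0.44. A fitted difference of at least 1.5-fold was found for 509 genes on the higher side (2.27%) and 555 on the lower side (2.48%). One of at least 2-fold was found for 99 genes on the higher side (0.442%) and 84 on the lower side (0.375%). The 95% interval of a gene's log2 fold change, without adjustment, reached a median of 0.43 to either side of its value. With 3 pools a group, differences under that size would for many genes not reach an unadjusted p under 0.05. After adjustment over all tested genes larger ones also went uncalled, such as 0.96 for vtna (SE 0.16). The libraries of the groups did not overlap for 2195 genes (9.8%). For 1141 of them (5.09%) all 3 exposed libraries lay above all 3 controls, and for 1054 (4.71%) all 3 lay below them. On the plot of fold change against p, genes such as mthfd1a, vtna, CPN2 and opn1mw2 lie at the top.

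**Figure D1:**
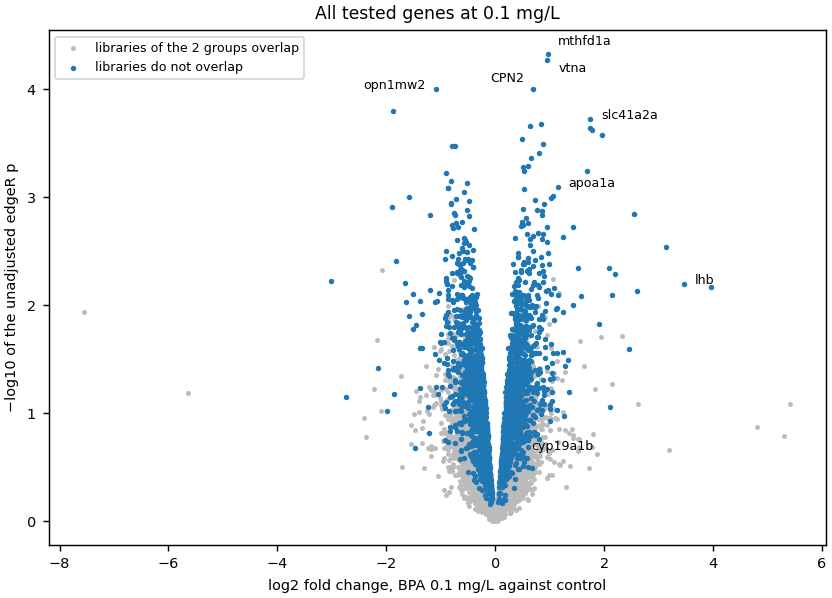
Each point is 1 of the 22399 tested genes; the x axis is the log2 fold change at 0.1 mg/L against control and the y axis the −log10 of the unadjusted edgeR p. Blue points are the genes whose exposed libraries lie all above (1141) or all below (1054) the controls; no gene passed an adjusted p of 0.05.

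The 12 genes of smallest p on each side, are described next as values. They were taken among genes with a symbol whose groups do not overlap and whose higher group reaches 1 CPM. None of them passed the edgeR test, and the separation of their libraries is fixed by that choice. DESeq2, whose calls over all genes are given above, called 10 of the 12 on the higher side and 8 of the 12 on the lower side. It did not call slc41a2a, cyp2aa9, prnpa, hivep1, CNGB3 and ABCA7. Both tests read the same counts, and these genes were picked for a small p, so the calls are no separate support. CPM stands for counts per M counts of a library after TMM scaling. On the higher side, 5 of the 12 are genes of blood plasma proteins of the complement and coagulation systems, made mainly by the liver: vtna, CPN2, vtnb, c8g and f2.

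vtna encodes a vitronectin, a plasma and matrix glycoprotein that binds integrins and restrains the membrane attack complex. It stood at 13.1, 9.92 and 11 CPM in control libraries 1, 2 and 3 and at 23.0, 22.3 and 21.0 CPM in libraries 1, 2 and 3 at 0.1 mg/L. Its log2 fold change was 0.96 (SE 0.16, edgeR adjusted p = 0.506, DESeq2 adjusted p = 0.00071). The gap between its groups follows from the choice of genes by small p and groups without overlap. Its paralog vtnb stood at 22.6, 19.0 and 25.3 CPM in the controls and at 35.4, 34.7 and 34.1 CPM in the exposed libraries. The log2 fold change of vtnb was 0.64 (SE 0.13, edgeR adjusted p = 0.506). CPN2, named for the regulatory subunit of the plasma enzyme carboxypeptidase N, stood at 7.20, 6.04 and 7.97 CPM against 11.9, 10.7 and 11.8 CPM. Its log2 fold change was 0.70 (SE 0.13, edgeR adjusted p = 0.506). f2 encodes prothrombin, the precursor of the clotting protease thrombin. It stood at 43.7, 33.2 and 46.4 CPM against 63.7, 80.0 and 71.3 CPM, a log2 fold change of 0.80 (SE 0.17, edgeR adjusted p = 0.551). c8g, the gamma chain of complement component C8, had the tightest libraries of these genes, at 8.98, 8.92 and 10.0 CPM in the controls and 13.2, 12.7 and 13.5 CPM at 0.1 mg/L, a log2 fold change of 0.50 (SE 0.10).

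The enzyme genes mthfd1a, mat1a and gatm were also among the 12. mthfd1a, a cytosolic enzyme that interconverts folate-bound carbon units, had the smallest p of all tested genes. It stood at 8.25, 5.48 and 7.46 CPM in the controls and at 14.3, 12.2 and 14.8 CPM at 0.1 mg/L. Its log2 fold change was 0.96 (SE 0.16, edgeR adjusted p = 0.506, DESeq2 adjusted p = 0.0007). mat1a, which makes S-adenosylmethionine in liver, stood at 83.8, 63.7 and 67.1 CPM against 125, 135 and 134 CPM, a log2 fold change of 0.88 (SE 0.18, edgeR adjusted p = 0.506). gatm, which makes the creatine precursor guanidinoacetate, stood at 198, 198 and 206 CPM against 306, 350 and 298 CPM, a log2 fold change of 0.66 (SE 0.14, edgeR adjusted p = 0.578). The controls of gatm hardly differed from one another.

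The remaining 4 on the higher side were less uniform among themselves. slc41a2a, of a family of magnesium transporters, stood at 1.17, 0.971 and 0.919 CPM in the controls and at 2.54, 2.18 and 5.71 CPM at 0.1 mg/L, with library 3 far above the other two. Its log2 fold change of 1.74 (SE 0.33, edgeR adjusted p = 0.506) was 1.14 with only the libraries numbered 1 and 2. cyp2aa9, a cytochrome P450, stood at 0.467, 0.763 and 0.306 CPM against 1.87, 1.44 and 2.87 CPM, a log2 fold change of 1.96 (SE 0.39). abca1b, a cholesterol exporter that loads apolipoprotein A-I, stood at 53.9 ± 8.14 CPM (mean ± SD, n = 3) in the controls and 82.0 ± 7.87 CPM at 0.1 mg/L. tmem110l stood at 11.2 ± 0.367 and 16.0 ± 1.68 CPM.

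**Figure D2:**
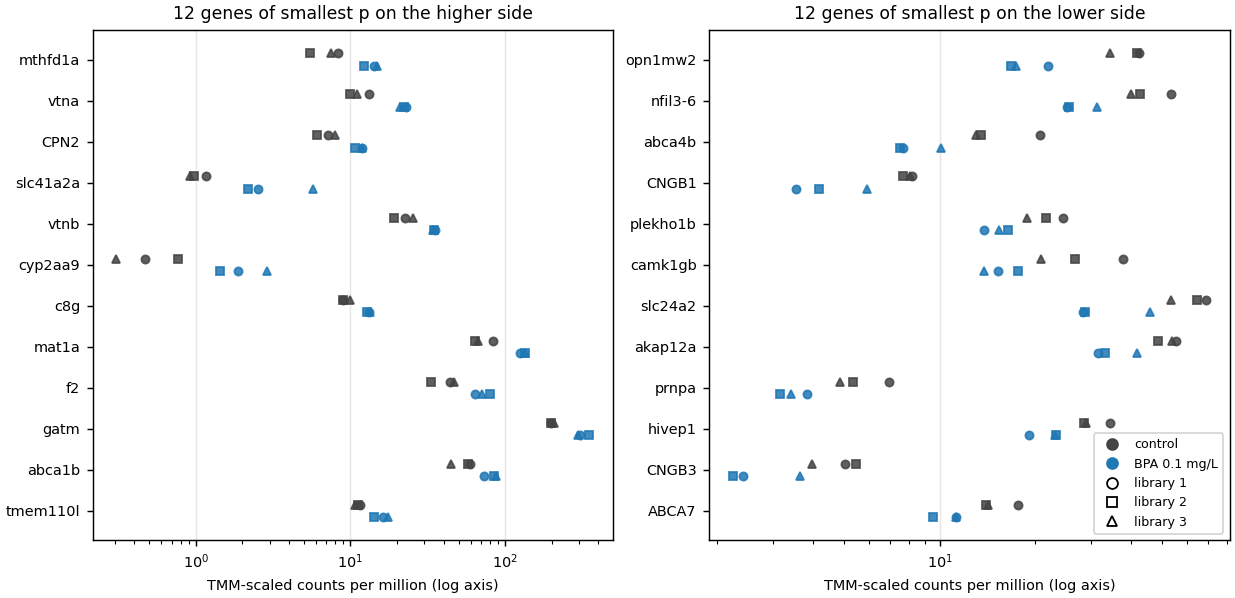
TMM-scaled counts per M counts (x axis, log scale) of the 12 genes of smallest p on each side, in the 3 control libraries (grey) and the 3 libraries at 0.1 mg/L (blue), with the library number as the marker. The groups do not overlap because that was a condition for showing a gene; slc41a2a reaches 5.71 in library 3 and 2.54 and 2.18 in the other exposed libraries.

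On the lower side, 5 of the 12 genes belong to photoreceptors or carry the names of their channel subunits: opn1mw2, abca4b, slc24a2, CNGB1 and CNGB3. opn1mw2, one of the green-sensitive cone opsins, stood at 42.4, 41.6 and 34.3 CPM in the controls and at 21.9, 16.8 and 17.4 CPM at 0.1 mg/L. Its log2 fold change was -1.08 (SE 0.19, edgeR adjusted p = 0.506, DESeq2 adjusted p = 0.0011). The green-sensitive opsin copies lie in tandem and are closely similar, so that reads can be split between them and the value of this copy is uncertain. abca4b, of the transporter family that clears retinal from outer segments, stood at 20.6, 13.5 and 13 CPM against 7.66, 7.51 and 10.08 CPM, a log2 fold change of -0.91 (SE 0.20). slc24a2, a sodium, calcium and potassium exchanger of cones, stood at 68.7, 64.3 and 53.5 CPM against 28.3, 28.6 and 45.9 CPM, with exposed library 3 nearest to the controls. Its log2 fold change was -0.86 (SE 0.20, edgeR adjusted p = 0.678). CNGB1, named for a channel subunit of rods, stood at 7.98 ± 0.276 CPM in the controls and 4.55 ± 1.22 CPM at 0.1 mg/L (mean ± SD, n = 3). CNGB3, named for the cone counterpart, stood at 4.84 ± 0.770 and 2.76 ± 0.763 CPM.

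The other 7 genes on the lower side had varied roles. nfil3-6, of a family of transcription repressors of the D-box element that the circadian clock uses, stood at 53.6, 42.6 and 40.0 CPM in the controls and at 25.1, 25.6 and 31.2 CPM at 0.1 mg/L. Its log2 fold change was -0.73 (SE 0.15, edgeR adjusted p = 0.506). akap12a, a scaffold protein that anchors protein kinase A, stood at 55.2, 48.6 and 53.9 CPM against 31.4, 33.0 and 41.7 CPM, a log2 fold change of -0.57 (SE 0.13). camk1gb, a calcium and calmodulin dependent kinase, stood at 37.7, 26.7 and 20.8 CPM against 15.3, 17.6 and 13.8 CPM, with control 1 the highest. plekho1b, prnpa, hivep1 and ABCA7 had log2 fold changes of -0.51, -0.73, -0.48 and -0.52.

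Gene lists were described by the counts and the median of their tested members. 10839 of all tested genes (48.4%) had a fitted log2 fold change above 0 and 11560 (51.6%) below. No list held a gene called by edgeR at 0.1 mg/L. Genes of a list vary together from library to library, so the counts within a list are not independent of each other, and 1 library can move many of them. The lists with the highest medians were of liver, gut and dividing cells, and the lowest was of photoreceptors.

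**Figure D3:**
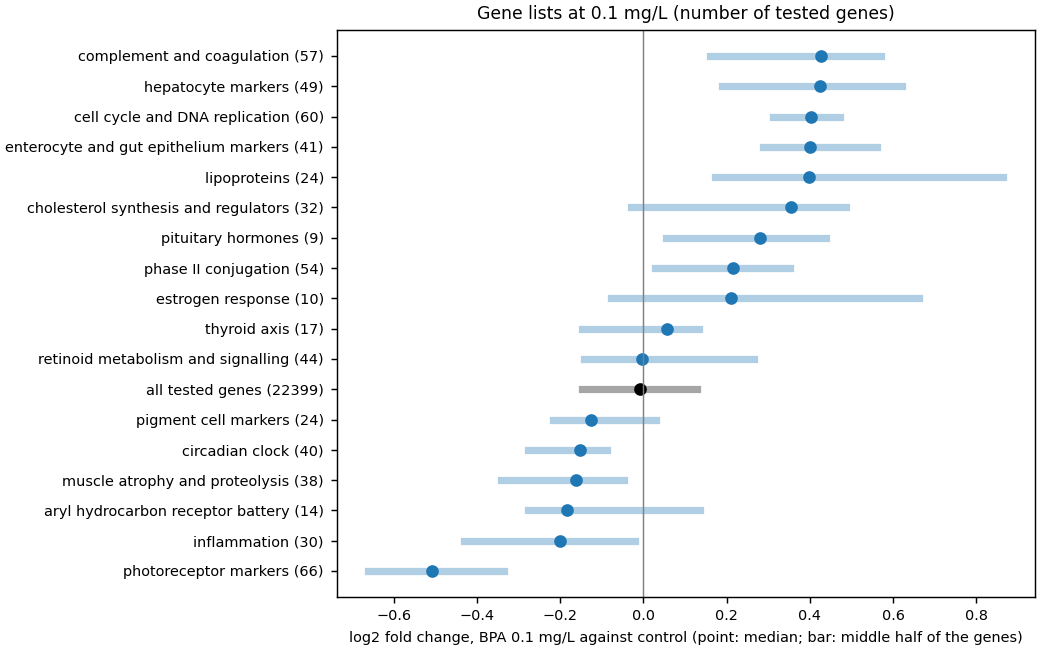
Median log2 fold change at 0.1 mg/L against control (points) and the quartiles (bars) of the 17 described gene lists and of all tested genes (black), with the number of tested genes in brackets. The medians run from -0.51 for photoreceptor markers to 0.43 for complement and coagulation.

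Liver-made plasma proteins lay mostly on the higher side. Of 57 tested complement and coagulation genes, 50 had a log2 fold change above 0, and the median was 0.43. In 19 of them (33.3%, against 5.09% of all tested genes) the exposed libraries lay above all controls, and in 0 below. Beyond the genes above, cfh, which restrains the alternative complement pathway, stood at 24.1, 12.2 and 17.6 CPM in the controls and 33.7, 36.2 and 32.5 CPM at 0.1 mg/L. fgb, the fibrinogen beta chain, stood at 74.0, 40.3 and 56.9 CPM against 90.5, 100 and 81.9 CPM. Control 2 was the lowest library for both genes. The mean level of the list, as log2 CPM centred per gene over the 12 libraries, was higher at 0.1 mg/L by 0.06, 0.86 and 0.19 between the libraries numbered 1, 2 and 3. Without control 2 the median was 0.24, and without library 2 at 0.1 mg/L it was 0.26.

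The 49 tested hepatocyte markers, which share genes with that list, had 44 members above 0 and a median of 0.42. In 14 of them (28.6%, against 5.09% of all tested genes) the exposed libraries lay above all controls. Their summed level ran from 12039 to 14973 CPM in the controls and from 14822 to 18665 CPM at 0.1 mg/L, so that the summed ranges overlapped slightly. The differences between libraries of the same number were 0.17, 0.87 and 0.22, and without control 2 the median was 0.27. How far the amount of liver RNA bears on the single liver genes was not tested.

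Some apolipoprotein genes held fitted differences of over 1 on the log2 scale, and other abundant ones lay nearer 0. The log2 fold changes of apoa2, apoeb and apoa1b were 0.19, 0.13 and 0.61, with groups that overlapped. apoa1a encodes apolipoprotein A-I, the main protein of high density lipoprotein. It stood at 613, 658 and 829 CPM in the controls and at 1278, 1310 and 2067 CPM at 0.1 mg/L. Its log2 fold change was 1.15 (SE 0.26, edgeR adjusted p = 0.678, DESeq2 adjusted p = 0.0069), and every exposed library lay above every control. apoba, of the structural protein of very low density lipoprotein, stood at 90.3, 27.6 and 48.2 CPM against 103, 134 and 159 CPM. Its log2 fold change was 1.25 (SE 0.33, edgeR adjusted p = 0.772), and control 1 came near the lowest exposed library. The more abundant apobb.1 stood at 1389, 584 and 779 CPM against 1156, 2335 and 1825 CPM. Its groups overlapped, and its log2 fold change was 0.95 (SE 0.35, edgeR adjusted p = 0.946). apoa4a, an intestinal apolipoprotein of lipid absorption, stood at 3.09, 6.87 and 6.79 CPM against 11.5, 10.23 and 12.8 CPM, and apoc2, the activator of lipoprotein lipase, at 115, 137 and 181 CPM against 222, 236 and 341 CPM. Of the 24 tested genes of the lipoprotein list, 19 lay above 0, and the median was 0.40. The list shares genes with the hepatocyte and gut epithelium marker lists, so their values are not separate results. In 9 of them (37.5%, against 5.09% of all tested genes) all exposed libraries lay above the controls. In 2 (8.33%, against 4.71% of all tested genes) all exposed libraries lay below the controls. These were the receptor gene lrp1ab and the phospholipid transfer protein gene pltp, at log2 fold changes of -0.42 and -0.27. The list differed by 0.31, 0.62 and 0.39 between libraries of the same number.

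Gut epithelium markers had a median of 0.40 over 41 tested genes, 38 of them above 0. In 13 (31.7%, against 5.09% of all tested genes) the exposed libraries lay above all controls. In 1 (2.44%, against 4.71%) they lay below all controls. The 2 identifiers that carry the name dab2, an endocytic adaptor of absorptive cells, went opposite ways: dab2 stood at 15.6, 16.8 and 16.2 CPM against 21.4, 23.2 and 21.4 CPM, and DAB2 at 34.3, 33.0 and 33.9 CPM against 26.2, 27.7 and 28.5 CPM. amn, which anchors the cubilin receptor, had a log2 fold change of 0.39. The list mean differed by 0.14, 0.63 and 0.32 between libraries of the same number, and without library 2 at 0.1 mg/L the median was 0.21.

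Genes of the cell cycle and DNA replication lay almost all on the higher side: 59 of 60 tested genes were above 0, with a median of 0.40. In 13 of them (21.7%, against 5.09% of all tested genes) the exposed libraries lay above all controls. orc6, a subunit of the origin recognition complex, stood at 3.15, 3.64 and 3.58 CPM in the controls and 6.19, 4.16 and 5.40 CPM at 0.1 mg/L. E2F1, named for the transcription factor of S phase entry, stood at 2.89, 2.74 and 2.09 CPM against 5.05, 3.65 and 4.14 CPM. ccne1, cyclin E, stood at 6.27, 5.97 and 4.75 CPM against 9.43, 6.73 and 8.09 CPM. In all 3 genes library 1 was the highest of the exposed libraries. For the whole list the differences between libraries of the same number were 0.53, 0.20 and 0.33, and the median was 0.17 without library 1 at 0.1 mg/L.

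Cholesterol synthesis genes also stood highest in exposed library 1. Of 32 tested genes 23 lay above 0, and the median was 0.35. In 9 of them (28.1%, against 5.09% of all tested genes) all exposed libraries lay above the controls. mvda, a decarboxylase of the mevalonate pathway, stood at 2.25, 1.87 and 1.74 CPM in the controls and at 5.05, 3.47 and 2.38 CPM at 0.1 mg/L. lss, which closes the sterol rings, stood at 1.75, 1.56 and 1.33 CPM against 4.92, 3.02 and 1.76 CPM. sqlea, a squalene epoxidase, and ebp, a sterol isomerase, had log2 fold changes of 0.78 and 0.57. Library 1 was highest and library 3 lowest among the exposed libraries for mvda and lss, and without library 1 at 0.1 mg/L the list median was 0.11.

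Conjugating enzymes of phase II, which attach glucuronate, sulfate or glutathione to BPA and other compounds, lay on the higher side with a smaller median. Of 54 tested genes 45 were above 0, and the median was 0.21. In 13 of them (24.1%, against 5.09% of all tested genes) all exposed libraries lay above the controls. gstt1a, a glutathione transferase, stood at 65.0, 78.3 and 73.1 CPM in the controls and at 93.2, 92.0 and 95.5 CPM at 0.1 mg/L. ugt1b2, a glucuronosyltransferase whose copies may share reads, stood at 1.58, 1.32 and 0.562 CPM against 3.45, 2.57 and 2.49 CPM. sult2st2, a sulfotransferase, stood at 50.1 ± 10.19 and 66.2 ± 1.67 CPM (mean ± SD, n = 3). The summed level of the list ran from 1755 to 2100 CPM in the controls and from 2279 to 2414 CPM at 0.1 mg/L, with no overlap. Its differences between libraries of the same number were 0.30, 0.14 and 0.13.

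Photoreceptor markers were the list with the lowest median. All 66 tested genes had a log2 fold change below 0, the median was -0.51, and 31 had an unadjusted edgeR p under 0.05 on the lower side, where 2.41% of all tested genes did. In 18 of them (27.3%, against 4.71% of all tested genes) the exposed libraries lay below all controls. pde6c, the catalytic subunit of the cone phosphodiesterase, stood at 277, 163 and 105 CPM in the controls and at 104, 100 and 87.4 CPM at 0.1 mg/L. rgs9a, which speeds the shut-off of transducin, stood at 19.5, 11.6 and 8.38 CPM against 7.49, 6.70 and 7.17 CPM. Control 1 was the highest library and control 3 the lowest control for both, and control 3 came close to the exposed libraries. rho, the rod opsin, stood at 747 ± 337 CPM in the controls and 511 ± 96.5 CPM at 0.1 mg/L (mean ± SD, n = 3). opn1sw1, the ultraviolet-sensitive cone opsin, stood at 942 ± 479 and 653 ± 97.2 CPM.

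The spread of the photoreceptor list lay mainly among the controls. Its summed level ran from 4454 to 9286 CPM in the 3 controls and from 4148 to 5114 CPM in the 3 exposed libraries. The mean centred log2 level was 0.66, 0.20 and -0.07 in controls 1, 2 and 3 and -0.14, -0.21 and -0.19 in the exposed libraries. The differences between libraries of the same number were thus -0.80, -0.40 and -0.11. Without control 1 the list median was -0.24, and it was below 0 in all 15 alternatives run. The log2 fold change of opn1mw2, named for its small p and groups without overlap, ran from -1.21 to -1.01 as each of the 6 was left out. The more abundant green-sensitive copy opn1mw1 stood at 443, 232 and 167 CPM in the controls and 253, 215 and 168 CPM at 0.1 mg/L. Its groups overlapped, and its log2 fold change was -0.41 (SE 0.32, edgeR adjusted p = 0.99). At 1 and 4 mg/L, against the same controls, the list median was -0.49 and -0.24.

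**Figure D4:**
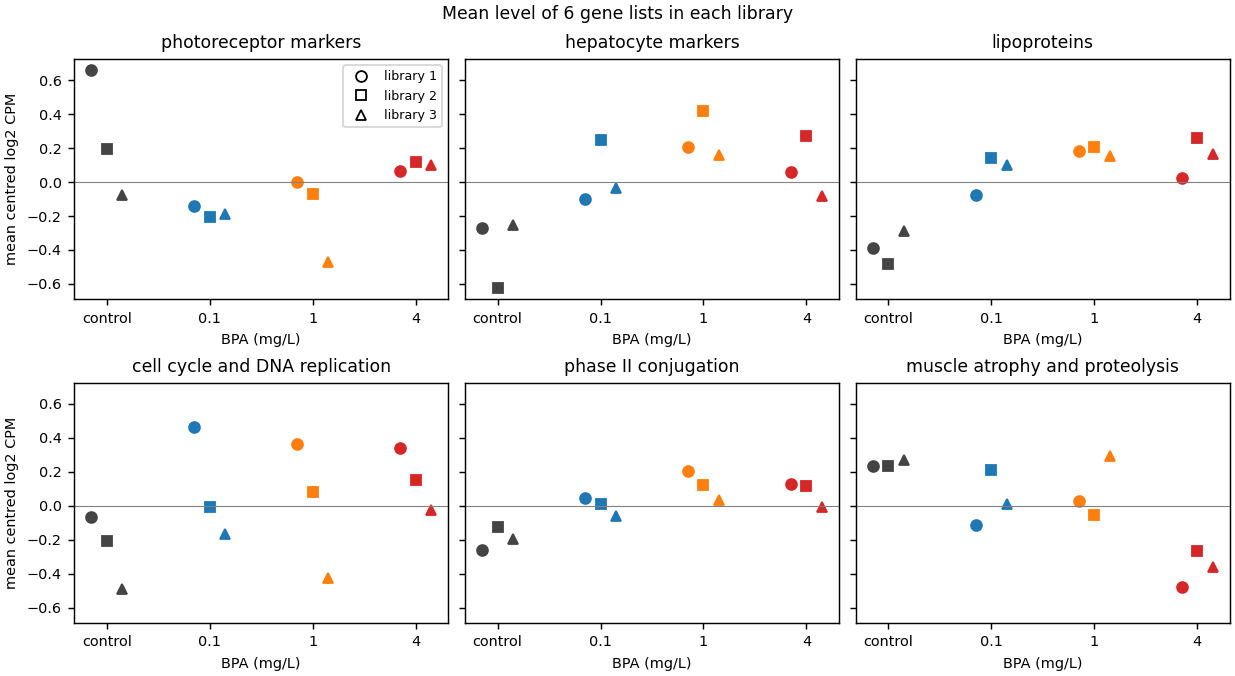
Mean level of 6 gene lists in each of the 12 libraries (y axis: log2 CPM centred per gene over all libraries, averaged over the list) by BPA dose (x axis), with the library number as the marker. For photoreceptor markers control 1 stands at 0.66, apart from control 3 at -0.07; for phase II conjugation all exposed libraries lie above all controls.

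None of the 10 tested estrogen response genes passed the edgeR test at 0.1 mg/L, and those known best for their response had few counts. cyp19a1b, to which the files give the gene type unprocessed pseudogene, had 7, 7 and 7 counts in the controls and 11, 14 and 7 counts in the exposed libraries. The ratio of the summed counts, scaled by library totals, was 1.4 with a 95% counting interval of 0.785 to 2.56. Its log2 fold change was 0.47 (SE 0.39, edgeR adjusted p = 0.99), and the groups overlapped. The value was 0.29 without control 1 and 0.83 with only the libraries numbered 1 and 2. f13a1a.1, a coagulation factor XIII A chain gene with large responses at the higher doses, had 2, 1 and 1 counts in the controls and 2, 2 and 0 at 0.1 mg/L, a ratio of 0.921 (interval 0.172 to 4.95). esr1, the estrogen receptor alpha gene, had 7, 3 and 6 counts against 10, 7 and 15, a ratio of 1.84 (interval 0.982 to 3.60), with edgeR adjusted p = 0.99. vtg1, a vitellogenin too low to enter the test, had 0, 2 and 1 counts against 3, 4 and 2, a ratio of 2.76 (interval 0.690 to 15.9). These intervals cover counting error only, and vitellogenin copies can share reads.

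In 1 of the 10 tested estrogen response genes (10%, against 5.09% of all tested genes) all exposed libraries lay above the controls. This was lhb, the beta subunit of luteinizing hormone from the pituitary. It had 0, 1 and 0 counts in the controls and 6, 9 and 1 counts at 0.1 mg/L. The ratio was 14.7 with a counting interval of 2.29 to 618, and the edgeR adjusted p was 0.876. Exposed library 3 held a single count, as did control 2, so scaling alone sets the order of those libraries. At 1 mg/L the gene had 27, 31 and 20 counts and at 4 mg/L 21, 48 and 34 counts. The more abundant members lay near 0: ctsd, the protease cathepsin D, stood at 212 ± 5.92 CPM in the controls and 205 ± 3.23 CPM at 0.1 mg/L (mean ± SD, n = 3). greb1 stood at 2.57 ± 0.145 and 2.4 ± 0.390 CPM, and esr2b, an estrogen receptor beta gene, at 2.49 ± 0.365 and 2.33 ± 0.192 CPM. Of the 10 tested estrogen response genes 6 lay above 0 and the median was 0.21. It was -0.05 with a filter of 1 CPM in 3 of the 12 libraries and -0.01 in a fit of the 6 libraries alone. Each of these settings drops some of the low genes, and not the same ones.

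Pituitary and thyroid lists had medians whose sign depended on single libraries. Of 9 tested pituitary hormone genes 8 were above 0 with a median of 0.28, which was -0.08 without library 2 at 0.1 mg/L. After lhb, pomcb had the smallest p, at 0.175, 0.069 and 0.153 CPM in the controls and 0.201, 0.389 and 0.230 CPM at 0.1 mg/L. Its log2 fold change at these low levels was 1.04 (SE 0.46, edgeR adjusted p = 0.986). cga, the alpha subunit that luteinizing hormone shares with thyrotropin, stood at 1.63 ± 0.214 CPM in the controls and 1.95 ± 0.429 CPM at 0.1 mg/L (mean ± SD, n = 3), and gh1, growth hormone, at 9.56 ± 1.47 and 9.94 ± 1.73 CPM. The thyroid axis had 9 of 17 genes above 0 and a median of 0.06, which was -0.10 without control 2. None of its genes had groups without overlap, against 9.8% of all tested genes. dio1, a deiodinase, stood at 15.5 ± 4.81 and 20.6 ± 4.91 CPM. IYD and crhb, of smaller p, had log2 fold changes of 0.40 and -0.36 (edgeR adjusted p = 0.99 for both), with groups that overlapped.

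Genes of the aryl hydrocarbon receptor, a sensor of planar aromatic pollutants, and its targets had 5 of 14 genes above 0 and a median of -0.18, which was -0.03 without control 1. cyp1a, its main target, stood at 13.1, 13 and 13.8 CPM in the controls and at 11.7, 25.8 and 16.4 CPM at 0.1 mg/L, with exposed library 1 below the controls and library 2 well above them. Its log2 fold change was 0.43 (SE 0.32, edgeR adjusted p = 0.99), and 0.07 without library 2 at 0.1 mg/L. The receptor gene ahr1b stood at 16.2, 12.5 and 10.8 CPM against 5.85, 6.01 and 11.6 CPM, and exposed library 3 lay within the controls. In 1 gene of the list (7.14%, against 5.09% of all tested genes) the exposed libraries lay above all controls. This was cyp1c2, at 3.79, 3.30 and 3.78 CPM against 4.15, 4.46 and 4.56 CPM, a log2 fold change of 0.28. In 1 (7.14%, against 4.71%), foxq1a, they lay below all controls, at a log2 fold change of -0.29.

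The retinoid list was divided evenly, with 22 of 44 genes above 0 and a median of -0.0042. On each side 5 genes (11.4%) were without overlap, against 5.09% of all tested genes higher and 4.71% lower. The members named here are the 3 of smallest p and rlbp1b, which was chosen after its values were seen. The tissue they came from was not measured in these whole larvae. rbp2b, a retinol-binding protein gene of a family expressed in the gut, stood at 31.3, 27.6 and 41.5 CPM in the controls and at 55.3, 54.8 and 55.6 CPM at 0.1 mg/L, and bco1l, a carotenoid cleavage enzyme, at 11.8, 12.6 and 12.6 CPM against 22.3, 22.7 and 21.7 CPM. rpe65a, the isomerase of the retinal pigment epithelium, stood at 202, 159 and 126 CPM against 91.5, 116 and 106 CPM. rlbp1b, which carries retinal in the eye, stood at 152 ± 18.6 and 118 ± 7.52 CPM (mean ± SD, n = 3). The log2 fold changes of rbp2b, bco1l, rpe65a and rlbp1b were 0.72, 0.85, -0.64 and -0.36, and none passed the edgeR test.

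The clock, muscle breakdown, inflammation and pigment cell lists were, with the photoreceptor and aryl hydrocarbon receptor lists, the 6 of lowest median among the 58. Of 40 circadian clock genes 38 lay below 0, with a median of -0.15. In 3 of them (7.5%, against 4.71% of all tested genes) the exposed libraries were below all controls: nfil3-6, clocka and nfil3. clocka, a core activator of the clock, stood at 14.5, 10.304 and 11.2 CPM in the controls and at 8.90, 9.79 and 9.16 CPM at 0.1 mg/L. The list median ran from -0.25 to -0.09 as single libraries were left out.

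Of 38 genes of muscle atrophy and proteolysis 32 lay below 0, the median was -0.16, and 9 (23.7%, against 4.71%) had all exposed libraries below the controls. psme4a, a proteasome activator, stood at 86.3, 79.2 and 82.3 CPM in the controls and at 34.5, 60.4 and 59.6 CPM at 0.1 mg/L. fbxo32, the ubiquitin ligase atrogin-1, stood at 71.4, 61.3 and 72.3 CPM against 32.7, 61.0 and 47.0 CPM, and trim63a, the ligase MuRF1, at 143, 146 and 159 CPM against 93.0, 132 and 101 CPM. Exposed library 1 was the lowest and library 2 the nearest to the controls for fbxo32 and trim63a. The list differed by -0.35, -0.02 and -0.26 between libraries of the same number, and its median was -0.26 without library 2 at 0.1 mg/L.

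Of 30 inflammation genes 24 lay below 0, with a median of -0.20 and 3 (10%, against 4.71% of all tested genes) with all exposed libraries below the controls. il1b, the cytokine interleukin 1 beta, stood at 2.01, 1.21 and 1.43 CPM in the controls and at 0.435, 0.688 and 1.23 CPM at 0.1 mg/L, with exposed library 3 within the range of the controls. lcn15, a lipocalin, was on the other side at 5.58 ± 0.572 and 7.75 ± 0.938 CPM (mean ± SD, n = 3). Of 24 pigment cell genes 17 lay below 0, and the median was -0.12. In 3 of them (12.5%, against 4.71% of all tested genes) the exposed libraries lay below all controls. In 1 (4.17%, against 5.09%) they lay above all controls. dct, a melanin synthesis enzyme on the lower side, stood at 74.2 ± 12.1 and 56.8 ± 2.4 CPM. slc2a11b, the gene on the higher side, stood at 7.91 ± 1.06 and 10.5 ± 1.54 CPM.

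The genes with the largest changes at 4 mg/L were then read at 0.1 mg/L, to show where the lowest dose stood for them. The doses share their 3 controls, so the values are set side by side only. cyp19a1b rose at 1 mg/L (log2 fold change 3.28, edgeR adjusted p = 0.0027) and at 4 mg/L (6.25), against 0.47 at 0.1 mg/L. f13a1a.1 rose at 1 mg/L (6.03, edgeR adjusted p = 0.025) and 4 mg/L (6.35, edgeR adjusted p = 0.0061), against -0.11 at 0.1 mg/L. hbz, an embryonic alpha-type globin gene, rose at 4 mg/L (3.78, edgeR adjusted p = 0.012), against 0.43 and 0.79 at 0.1 and 1 mg/L. At 0.1 mg/L its value was -0.088 without library 3 of that dose and 0.85 without control 3.

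Plasma protein and apolipoprotein genes had other profiles. The log2 fold change of vtna was 0.96, 1.51 and 1.56 at 0.1, 1 and 4 mg/L, with edgeR adjusted p = 0.0061 at 1 mg/L and 0.0028 at 4 mg/L. That of apoa1a was 1.15, 1.25 and 1.72, that of apoba 1.25, 1.3 and 1.91, and that of slc41a2a 1.74, 2.15 and 2.55. For ifit14, an interferon-induced gene, it was 2.54, 2.2 and 3.25, from 0.142 ± 0.107 CPM in the controls and 0.815 ± 0.292 CPM at 0.1 mg/L (mean ± SD, n = 3). For afp4 (ENSDARG00000041490, as other identifiers share the symbol) it was 1.42, 1.52 and 2.47. At 4 mg/L each of these genes passed the edgeR test.

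The muscle genes that fell at 4 mg/L stood nearer to 0 at the lower doses. fbxo32 was at -0.54, -0.55 and -2.17 at 0.1, 1 and 4 mg/L, klhl38b at -0.51, -0.57 and -1.94, trim63a at -0.46, -0.48 and -1.86, and psme4a at -0.68, -0.63 and -1.81. Without library 1 at 0.1 mg/L the value of fbxo32 at that dose was -0.34. hamp, the iron hormone hepcidin, was at -0.93, 0.05 and -2.69. It stood at 10.9, 6.87 and 7.20 CPM in the controls and at 5.52, 3.80 and 3.87 CPM at 0.1 mg/L, with all exposed libraries below the controls. At 0.1 and 1 mg/L none of these 5 genes passed the edgeR test.

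**Figure D5:**
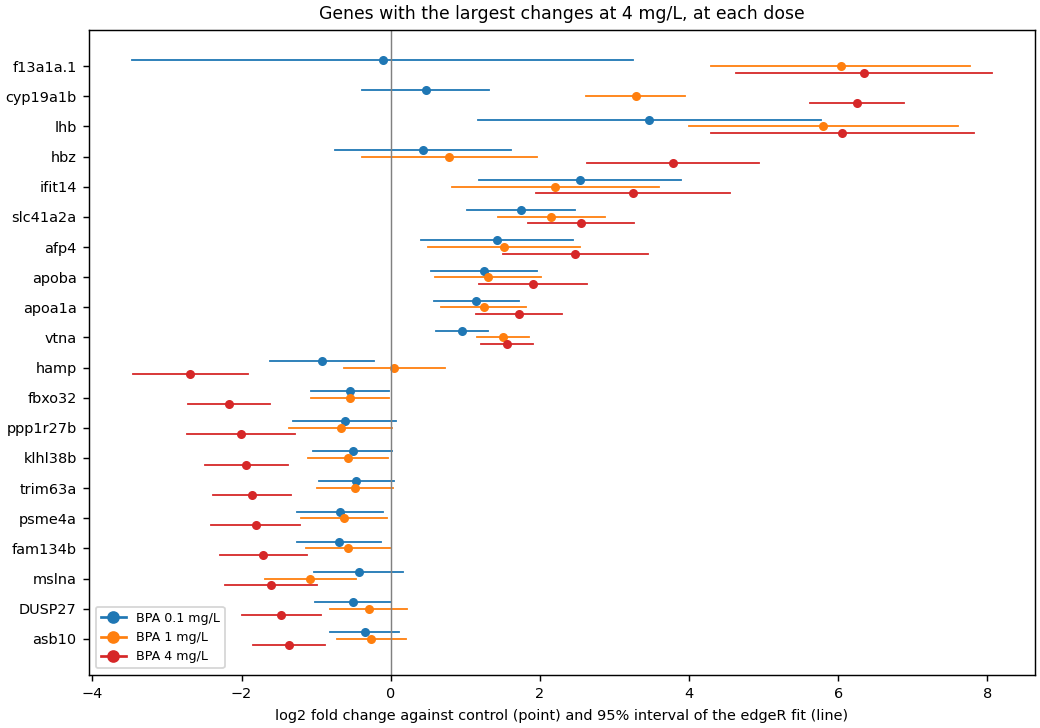
Log2 fold change against control (points) and 95% interval of the edgeR fit (lines) of the 20 genes with the largest changes at 4 mg/L, 10 in each direction, at 0.1, 1 and 4 mg/L. The same 3 controls underlie all points; cyp19a1b stands at 0.47, 3.28 and 6.25.

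Direct tests between doses asked which genes differed from the lowest dose. The controls do not enter these differences, but they share in the fit's estimate of the spread. Between 1 and 0.1 mg/L edgeR called 2 genes higher at 1 mg/L (0.00893%) and 0 lower, with 436 genes at an unadjusted p under 0.05 and 2 calls in DESeq2. Between 4 and 0.1 mg/L it called 2 genes higher at 4 mg/L (0.00893%) and 0 lower, with 1497 at an unadjusted p under 0.05. In both contrasts the 2 genes were cyp19a1b and f13a1a.1. With the replicate number as a block the count between 4 and 0.1 mg/L was 32 (15 higher and 17 lower), and DESeq2 called 60 (17 higher and 43 lower).

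cyp19a1b was 2.82 higher on the log2 scale at 1 than at 0.1 mg/L (edgeR adjusted p = 0.0063) and 5.78 higher at 4 mg/L (edgeR adjusted p = 7.9e-07). Its counts of 11, 14 and 7 at 0.1 mg/L stood against 77, 94 and 50 at 1 mg/L and 522, 800 and 583 at 4 mg/L, with no overlap. f13a1a.1 was 6.14 higher at 1 mg/L (edgeR adjusted p = 0.047) and 6.45 higher at 4 mg/L (edgeR adjusted p = 0.023), fitted values that at 4 counts in the lower group depend on the prior count. Its counts were 58, 141 and 88 at 1 mg/L and 93, 247 and 70 at 4 mg/L. Leaving out library 1, 2 or 3 at 0.1 mg/L raised the edgeR adjusted p of f13a1a.1 to 0.44, 0.58 and 0.49 against 1 mg/L and to 0.17, 0.33 and 0.11 against 4 mg/L. The same raised that of cyp19a1b against 1 mg/L to 0.077, 0.060 and 0.083, while against 4 mg/L it stayed at or under 3.0e-05. The fitted log2 difference between 4 and 0.1 mg/L was -1.63 for fbxo32 (edgeR adjusted p = 0.0996) and 2.59 for lhb (edgeR adjusted p = 0.31), and neither passed the test.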

How the data were processed

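Per the labels' protocols, stranded poly-A libraries were made from total RNA of pooled whole larvae and sequenced in pairs. The submitters' processing notes name CASAVA, STAR 2.5.1b, RSEM 1.2.28, DESeq2 1.10.1 and GRCz10, without role or order (settings: not given in the sources used here). Gene by gene, the authors deposited whole-number counts per gene, 1 file per library, not normalized; RSEM estimates counts and these may have been rounded before deposit. How reads mapping to several genes were counted is not given, so the values of near-identical copies are uncertain. Of the gene identifiers, 26073 matched the reference table of another genome build, and no coordinates are given.

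Groups came from the sample titles. Genes were kept by filterByExpr (minimum count 10, minimum total 15), scaled by TMM and fitted in 1 model of the 12 libraries with a term for group and no other, in edgeR 4.0.16 (R 4.3.3), with two-sided quasi-likelihood tests and Benjamini-Hochberg adjustment over all 22399 genes at 0.05. SEs were obtained from the fitted log2 fold changes and their F statistics. Ratios of summed counts have exact conditional binomial 95% intervals. List levels are log2(CPM + 0.5). Libraries of 1 group differed by 26.2 to 71.3 chi-square per degree of freedom (genes of 30 counts or more), and each stayed a replicate of its own.

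Named genes were sentinels (cyp19a1b, f13a1a.1, lhb, vtg1, esr1, cyp1a), the 12 genes of smallest p per direction (with a symbol, groups that do not overlap and 1 CPM or more in the higher group), up to 3 members of smallest p of each described list, and the 10 largest changes per direction at 4 mg/L. Described lists were the 6 highest and 6 lowest medians and 6 endocrine or metabolic lists. Other genes named (cfh, fgb, apobb.1, lrp1ab, pltp, amn, lss, pde6c, rgs9a, rho, opn1sw1, opn1mw1, gh1, rlbp1b, foxq1a, ctsd, greb1, esr2b and those of the closing observations) were chosen after their values were seen. The comparison, the lists and the rules were chosen with earlier results of these data known.

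Deviations from the group means correlated at 0.21, 0.002 and 0.455 between control and 0.1 mg/L libraries numbered 1, 2 and 3, at 0.513, 0.233 and 0.341 between 0.1 and 1 mg/L, and at 0.355, 0.242 and 0.274 between 0.1 and 4 mg/L. Between doses every value was above 0.1. The main tests, those between doses included, did not pair libraries by number. The replicate block among the alternatives was fitted to all libraries, controls included. The labels do not say what a number stands for. Alternatives were DESeq2 1.42.0, limma-voom (limma 3.58.1), RLE and upper-quartile scaling, other filters, a replicate block, fewer libraries, other thresholds and each library left out. The scripts were tested on simulated data.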

Additional observations from a re-analysis of the deposited data

How the results depend on the processing

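The count of 0 genes at 0.1 mg/L against control held under upper-quartile and RLE scaling, limma-voom, a filter of 1 CPM, no filter at all, only the 6 libraries, only libraries numbered 1 and 2, thresholds of 0.01 and 0.1, and each library left out (0 to 0). It was 32 in DESeq2 and 2 with the replicate block (apoa1a and apoea). What a number stands for is not given. Deviations of same-numbered libraries of these groups correlated at 0.21, 0.002 and 0.455 for numbers 1, 2 and 3. Between 1 and 0.1 mg/L the count was 0 with only libraries numbered 1 and 2 and ran from 0 to 2 as single libraries were left out. Between 4 and 0.1 mg/L it was 60 in DESeq2, 32 with the replicate block, 1 with only libraries numbered 1 and 2, and 1 to 3 as single libraries were left out. Fewer libraries were fitted in the latter settings; the cause of the other shifts was not tested. Of the named genes, hbz at 0.1 mg/L ran from -0.088 (without library 3 at 0.1 mg/L) to 0.85 as single libraries were left out, and f13a1a.1 from -0.48 to 0.36 (positive without control 1, at 0.10, or library 3 at 0.1 mg/L); it was 0.39 with only libraries numbered 1 and 2. Among the 77 genes recomputed, which were named by rule, no other changed direction. Of their recomputed values 1122 stayed on their side of the threshold and 22 crossed it, all in DESeq2 or with the replicate block. The genes chosen after their values were seen were not recomputed. Of the recomputed list medians, those of all tested genes included, 252 stayed within and 18 moved beyond the spread between replicates. The 18 were in the photoreceptor, estrogen response, pituitary, thyroid, retinoid, cholesterol and aryl hydrocarbon receptor lists. Each list was held to its own spread, so lists that vary much between libraries stay within more easily. The fall from 0.40 to 0.17 for cell cycle genes thus counted as within. With 3 pools a group, the unadjusted intervals reached a median of 0.43 on the log2 scale to either side. After adjustment larger differences also went uncalled, and genes with under 10 counts a library are limited by counting.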

Other observations

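A list of genes of the folate and methionine cycles, which also held gatm of creatine synthesis, lay mostly on the higher side at 0.1 mg/L. Of the 34 tested genes of that list, mthfd1a, mat1a and gatm included, 27 were above 0, with a median log2 fold change of 0.16. mthfd1l, the mitochondrial formate producer, stood at 10.08 ± 0.728 CPM in the controls and 19.6 ± 5.72 CPM at 0.1 mg/L (mean ± SD, n = 3). shmt1, which moves a carbon unit from serine to folate, stood at 48.2 ± 2.06 and 61.7 ± 8.66 CPM. Of 36 tested genes of fat synthesis and storage 24 were above 0 and 12 below, with a median of 0.08. In 5 (13.9%, against 5.09% of all tested genes) the exposed libraries lay above all controls, and in 0 below. Among single members, dgat2, an enzyme of triglyceride synthesis, stood at 30.5 ± 13.4 and 58.2 ± 9.75 CPM. cyp2aa8 and cyp2aa4, P450 genes of the same subfamily as cyp2aa9, had log2 fold changes of 1.58 and 0.96; such copies can share reads. None of these genes passed the edgeR test.

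The heat shock genes hsp70.3, hsp70.1, hsp70.2 and hsp70l were high in library 2 at 0.1 mg/L alone among the 6 libraries. hsp70.3 stood at 4.67, 3.50 and 3.01 CPM in the controls and at 5.55, 86.4 and 6.94 CPM at 0.1 mg/L, and hsp70l at 4.52, 2.60 and 2.96 CPM against 3.08, 31.3 and 4.45 CPM. These copies are near-identical, so that reads can be split between them. Neuron markers differed by -0.69, 0.40 and 0.14, and exocrine pancreas markers by -0.64, 1.26 and 0.15, between libraries numbered 1, 2 and 3.

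Genes without a common symbol also stood among the smallest p. zgc:194626, which the reference table names leap2, stood at 0.436 ± 0.0472 CPM in the controls and 1.51 ± 0.558 CPM at 0.1 mg/L (mean ± SD, n = 3), and CT826376.1, there named pde5aa, at 9.62 ± 1.06 and 5.57 ± 1.19 CPM. si:dkey-31g6.6 stood at 5.27 ± 1.72 and 17.5 ± 6.62 CPM.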
